A study of Mus musculus with 2 samples.

Results

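Tcf7, Lef1, Bach2, Foxo1, Satb1, Id3, Id2, Zeb2, Prdm1 and Tox are 10 genes encoding transcription factors, or inhibitors of them, that are known for setting lymphocytes on a naive, memory or effector course. They were taken as a list of names, with earlier results of these data known, and no value chose or ordered them. All 10 were found among the 13528 genes of a filtered single-cell count table from mouse liver. The table held CD45+ immune cells of TG mice (dnTGFβRII, a human dominant-negative TGF-β receptor II driven by the mouse CD4 promoter, studied as a model of primary biliary cholangitis) and of wild-type (WT) C57BL/6 mice, 10 weeks old by the labels, although the study's methods give a younger age. Each genotype came from 1 of 2 capture libraries, which also held cells of a further genotype (IFN-γ ARE-Del-/- with TG, P40-/-IL-2Ra-/- with WT) that the filtered table does not name. All mice were on the C57BL/6 strain, sex was not given, and how many animals were pooled was not stated in the sources used here. There were thus no replicates and no test was made, and a difference by genotype cannot be told apart from a difference by capture library.

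T cell factor 1, the product of Tcf7, and its relative Lef1 bind the same DNA motif and keep naive and central memory T cells able to self-renew, together with Foxo1, Bach2 and the chromatin organiser Satb1. Id2 and Id3 bind E proteins and stop them from reaching DNA, Id3 being typical of long-lived memory precursors and Id2 of effectors and innate lymphocytes. Zeb2 and Prdm1 (Blimp-1) drive terminal effector differentiation, with Prdm1 and Bach2 repressing each other's programme, while Tox is induced by lasting T cell receptor stimulation. In the liver, memory and effector CD8+ T cells are common. The study states that in TG mice the transgene blocks TGF-β signalling in CD8+ as well as CD4+ T cells.

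Promoter windows are shown for 4 members with opposed roles, Tcf7 and Bach2 on the memory side and Prdm1 and Zeb2 on the effector side, because each holds the DNA motif bound by another member or its family. RefSeq windows on GRCm38.p6, from 250 bases before to 50 after a transcription start, were present for 9 of the 10 members, 20 windows in all. Capitals mark matches, on either strand, to the TCF and LEF motif CTTTGA, the FOXO motif TGTTTAC, the ZEB E-box CACCTG and the BACH and AP-1 motif TGAGTCA. The windows for Tcf7 (chr11:52282546-52282845, minus strand), Prdm1 (chr10:44458699-44458998, minus strand), Zeb2 (chr2:45110228-45110527, minus strand) and Bach2 (chr4:32417185-32417484, plus strand) read, 5′ to 3′:
Tcf7: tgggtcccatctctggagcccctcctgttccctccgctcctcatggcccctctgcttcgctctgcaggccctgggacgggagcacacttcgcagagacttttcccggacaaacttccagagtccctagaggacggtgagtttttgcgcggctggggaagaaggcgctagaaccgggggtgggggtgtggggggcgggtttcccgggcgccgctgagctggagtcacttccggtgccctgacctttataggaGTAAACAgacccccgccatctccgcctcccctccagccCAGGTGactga
Prdm1: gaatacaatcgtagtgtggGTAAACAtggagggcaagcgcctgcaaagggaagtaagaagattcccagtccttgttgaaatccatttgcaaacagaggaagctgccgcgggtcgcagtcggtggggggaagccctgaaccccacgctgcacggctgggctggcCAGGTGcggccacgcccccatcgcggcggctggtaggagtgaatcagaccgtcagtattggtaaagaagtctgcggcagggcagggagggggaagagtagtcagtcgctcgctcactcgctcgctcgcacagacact
Zeb2: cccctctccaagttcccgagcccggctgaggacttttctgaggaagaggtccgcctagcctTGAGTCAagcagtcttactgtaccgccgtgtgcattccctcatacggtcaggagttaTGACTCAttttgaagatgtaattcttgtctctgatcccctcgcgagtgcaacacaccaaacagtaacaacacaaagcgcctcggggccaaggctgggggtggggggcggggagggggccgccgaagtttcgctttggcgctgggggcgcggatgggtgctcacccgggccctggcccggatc
Bach2: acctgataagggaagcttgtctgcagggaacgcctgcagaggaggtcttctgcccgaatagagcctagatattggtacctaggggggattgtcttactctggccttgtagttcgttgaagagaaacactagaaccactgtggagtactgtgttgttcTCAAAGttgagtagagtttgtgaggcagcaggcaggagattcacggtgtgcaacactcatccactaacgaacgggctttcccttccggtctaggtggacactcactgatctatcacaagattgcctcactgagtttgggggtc

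The Tcf7 and Prdm1 windows each held 1 FOXO motif and 1 ZEB E-box, the Zeb2 window held 2 BACH and AP-1 motifs, and the Bach2 window held 1 TCF and LEF motif. Among all 32851 windows, the TCF and LEF motif occurred in 16%, the FOXO motif in 3.65%, the ZEB E-box in 20.2% and the BACH and AP-1 motif in 5.2%. Of the 20 member windows, 8 held at least 1 of the motifs, and those not shown belong to Lef1 and Satb1. The share of all windows with at least 1 of them was not computed, so this count has no background. Tcf7 and Zeb2 had further windows, at other starts, without a match. All windows shown lay inside the annotated span of their protein-coding gene, Tcf7 at chr11:52252371-52283014, Prdm1 at chr10:44437177-44528501, Zeb2 at chr2:44983632-45117395 and Bach2 at chr4:32238804-32586108. A match says only that these letters are present, and binding was not measured.

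The filtered table held 4647 TG and 7282 WT cells, with a median of 3298 and 2654 UMIs (counted transcript molecules). Levels are given as CPM, the UMIs of a gene per 1000000 UMIs summed over the cells of a class, with 95% intervals that cover counting error only. The 2 library files shared 267 cell barcodes, and 36 were shared between TG and WT filtered cells. Markers of B and of T cells, each with 2 UMIs or more, occurred together in 13% of TG and 5.89% of WT cells. The class labelled NK carried more Cd3e, which encodes a subunit of the T cell receptor complex, in TG (1158 CPM) than in WT (97.8 CPM). The class labelled CD8αα T also differed in makeup, because 42.3% (35.2 to 49.6) of its WT cells but 4.88% (3.00 to 7.43) of its TG cells had a UMI of Trdc, the constant chain of the γδ T cell receptor. Among cells labelled NK a Trdc UMI was more common in WT, at 17.1% against 6.98% in TG. The class labelled CD8αβ T had 759 CPM of Cd8b1 in TG and 882 in WT, against no more than 40 CPM in CD8αα T cells of either genotype.

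The level of each factor depended on the class of immune cell. For 9 of the 10 members the class with the highest level was the same in TG and WT, among classes with at least 50 cells. This order is a description, since the classes were built from the genes of the same cells.

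Tcf7 was highest in CD4 T cells, at 560 CPM (511 to 613) in TG and 860 CPM (820 to 903) in WT. In CD8αβ T cells it stood at 355 CPM (339 to 372) in TG and 532 CPM (507 to 559) in WT, a level also reached by WT γδ T cells (559 CPM, 497 to 626), whose interval overlapped. NKT, NK and CD8αα T cells followed at 194, 163 and 160 CPM in TG, where NK and CD8αα T cells did not differ beyond their intervals, and at 124, 143 and 94.5 CPM in WT. Monocytes and macrophages stayed between 15 and 24.9 CPM. The share of cells with a Tcf7 UMI was 58.6% in TG and 68.3% in WT CD8αβ T cells, against 2.53% and 6.83% of mature B cells and 3.70% of TG neutrophils. Thinned to 1000 UMIs a cell, the CD8αβ shares were 28.3% and 39.7%. The median depth was 4557 UMIs in TG and 2996 in WT CD8αβ T cells, 2923 in TG and 2045 in WT mature B cells, and 6039 in TG neutrophils.

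Lef1, like Tcf7, was highest in CD4 T cells. It reached 241 CPM (209 to 277) in TG and 506 CPM (475 to 539) in WT CD4 T cells, then 144 and 315 CPM in CD8αβ T cells and 129 and 145 CPM in NKT cells. In TG the CD8αβ and NKT intervals overlapped, whereas in WT they were apart. WT γδ T cells, second for Tcf7, had only 90.4 CPM of Lef1. TG immature B cells had only 4.09 CPM and WT monocytes 7.65 CPM.

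Bach2 and Foxo1 were highest in mature B cells, where Bach2 restrains plasma cell formation and Foxo1 maintains B cell identity. Bach2 measured 418 CPM (397 to 441) in TG and 369 CPM (350 to 390) in WT mature B cells, well above the next class in either genotype (immature B cells at 80.2 CPM in TG and CD4 T cells at 124 CPM in WT). Foxo1 measured 230 CPM (214 to 247) in TG and 354 CPM (335 to 374) in WT mature B cells, followed by CD4 T cells at 168 and 307 CPM.

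Satb1, which folds chromatin around lineage genes in thymocytes, was highest in NKT cells at 372 CPM (344 to 401) in TG and 631 CPM (612 to 650) in WT. CD4 T cells were next at 323 and 542 CPM, and the TG intervals of these classes overlapped. In CD8αα T cells Satb1 was only 42.3 CPM in TG and 94.5 in WT.

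Id3 was highest outside the T cells, in macrophages (178 CPM in TG and 199 in WT) and mature B cells (124 and 154 CPM). CD8αβ and CD4 T cells were alike at 35.1 and 34.3 CPM in TG and at 71.4 and 68.8 CPM in WT. NK cells (7.45 and 11.8 CPM) and NKT cells (8.50 and 7.57 CPM) had little of it.

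Id2 was highest where Id3 was low, at 2125 CPM (2058 to 2194) in TG and 1672 CPM (1641 to 1703) in WT NKT cells. NK cells had 1770 and 1551 CPM and CD8αα T cells 1562 and 1336 CPM. Mature B cells, which depend on E protein activity, had 102 and 179 CPM.

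Zeb2 was the member whose top class differed between the genotypes. In TG it was highest in cells labelled NK (240 CPM, 220 to 261), followed by macrophages (196 CPM, 163 to 234), and these intervals overlapped. In WT it was highest in plasmacytoid dendritic cells (332 CPM, 298 to 369), a class with too few TG cells to be ranked. CD4 T cells and NKT cells lay between 5.15 and 13 CPM in either genotype.

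Prdm1 was highest in cells labelled NK, with 90.7 CPM (78.8 to 104) in TG and 87.8 CPM (73.9 to 104) in WT. TG CD4 T cells (80.5 CPM, 62.5 to 102) did not differ from TG NK cells beyond the intervals, whereas WT CD4 T cells had 29.3 CPM (22.2 to 37.9). No UMI was seen in 54 TG neutrophils, which at the floor of 3 UMIs allows up to 8.91 CPM.

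Tox was highest in CD8αα T cells, at 97.4 CPM (81.3 to 116) in TG and 165 CPM (133 to 203) in WT. In WT the interval of cells labelled NK (118 CPM, 102 to 136) overlapped it and that of CD8αβ T cells (116 CPM, 105 to 129) did not, while TG CD8αβ T cells had 39.8 CPM (34.6 to 45.5).

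**Figure D1:**
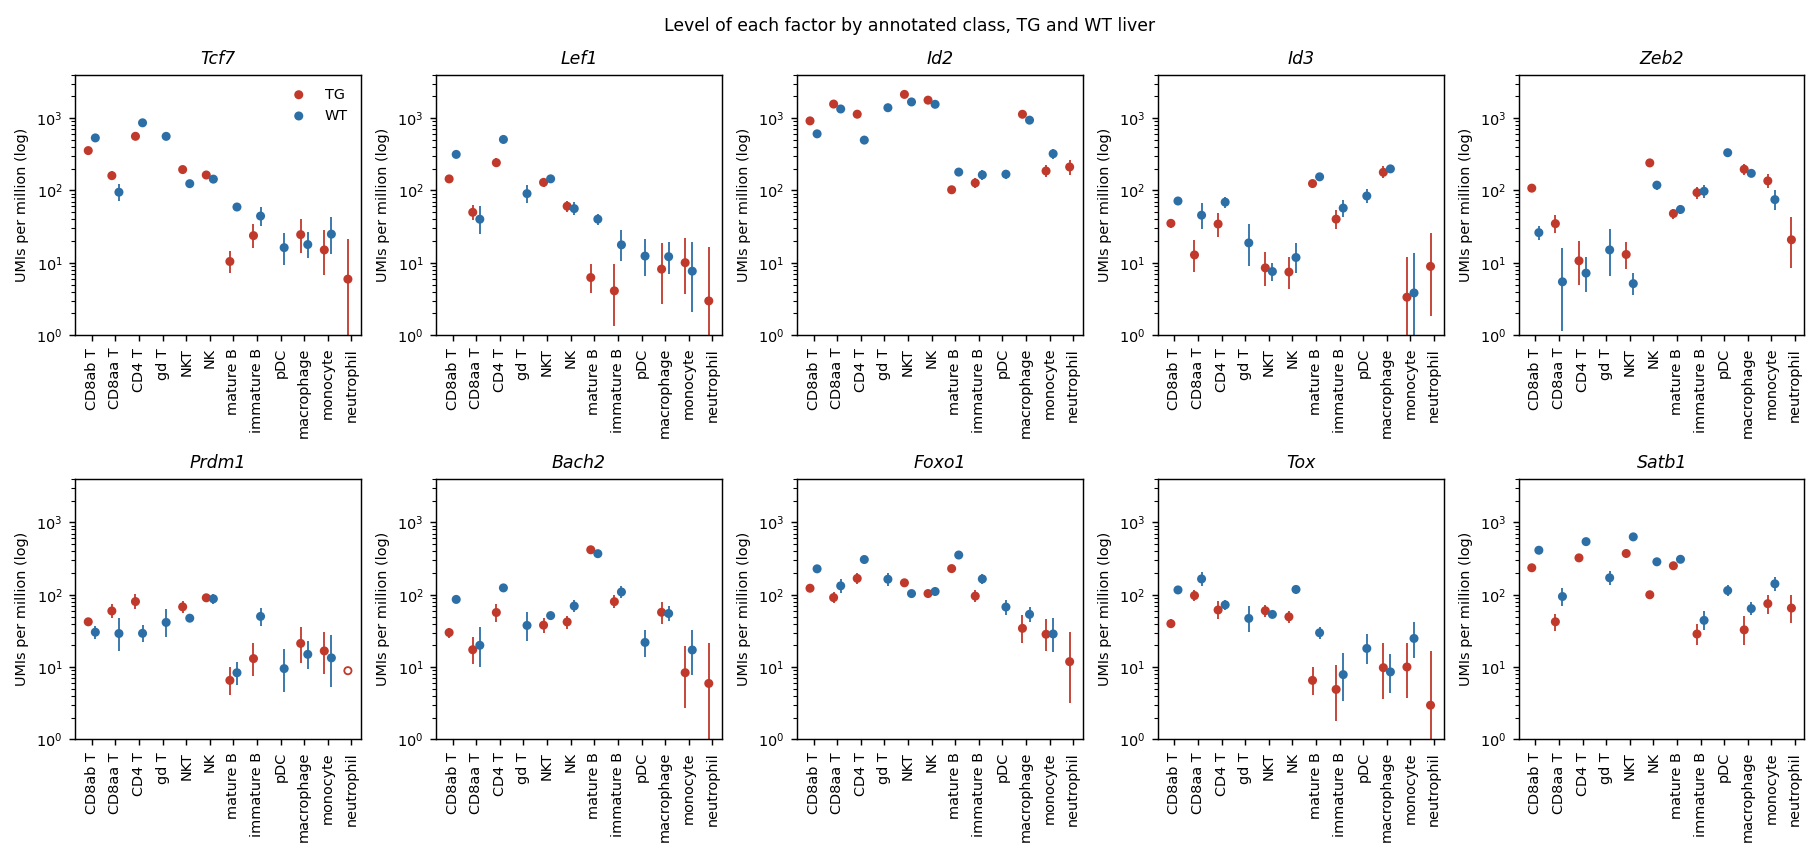
Level of each factor in CPM (log axis) by annotated class, for TG (red) and WT (blue). Points are summed levels of 1 library per genotype, bars are exact Poisson 95% intervals, an open point marks a level of 0 drawn at its floor of 3 UMIs, and classes with under 50 cells in a genotype are left out. Tcf7 and Lef1 peak in CD4 T cells, Bach2 in mature B cells, and Id2 in NKT cells.

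TG and WT were then compared within each class. A member was called where its level differed by at least 2-fold, the exact interval of the log2 ratio left out 0 and at least 10 UMIs were counted over both. Of 90 pairs of member and class, 23 were called, and Id3 in monocytes had too few UMIs to be tested. No pooled share over all genes is given, and the share in each class stands beside its calls below.

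In CD8αβ T cells Zeb2 was higher in TG by more than 2-fold and Lef1, Bach2, Id3 and Tox were lower. Of the 10 members 5 were called (1 higher, 4 lower), against 6.3% of all 11147 genes tested in that class (3.48% higher, 2.82% lower). Zeb2 was at 107 CPM in TG and 26.1 in WT, a log2 ratio of 2.04 (1.70 to 2.40). A Zeb2 UMI was found in 29% of TG cells and 6.47% of WT cells, and after thinning in 12.2% and 2.69%, while mature B cells had 3.75% and 5.09% after thinning.

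The called lower members were Tox at 39.8 against 116 CPM (log2 ratio -1.55, -1.80 to -1.30), Bach2 with 159 UMIs in TG against 264 in WT (-1.52, -1.82 to -1.23), Lef1 at 144 against 315 CPM (-1.13, -1.26 to -0.99) and Id3 at 35.1 against 71.4 CPM (-1.03, -1.32 to -0.74, and -0.99 without Scrublet doublets). Cluster 23 held 27 of the 211 TG and 171 of the 357 WT UMIs of Tox in this class. Without that cluster, an alternative chosen after the data were seen, Tox was at 35.0 against 66.9 CPM (-0.93, -1.24 to -0.63) and was no longer called. Tcf7 (-0.58), Foxo1 (-0.89) and Satb1 (-0.81) were under 2-fold, with intervals below 0, and Id2 (0.59) and Prdm1 (0.48) were under 2-fold with intervals above 0. The median log2 ratio of the 10 members was -0.85, beside 0.03 over all genes tested.

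CD4 T cells, in which the promoter of the transgene is active, showed 5 calls (2 higher, 3 lower), against 7.15% of all genes tested (5.01% higher, 2.15% lower). Prdm1 was at 80.5 CPM in TG and 29.3 in WT (log2 ratio 1.46, 0.93 to 1.99). Id2 was at 1132 and 496 CPM (1.19, 1.06 to 1.32). Zeb2 was not called here, with 9 UMIs in TG and 14 in WT (0.57, -0.82 to 1.88), so the effector member that differed most in CD8αβ T cells was hardly present in CD4 T cells. Bach2 (-1.13), Lef1 (-1.07) and Id3 (-1.0) were lower by 2-fold or more, and Tox was not (-0.23, -0.72 to 0.23). With cells thinned to 1000 UMIs these 3 were under 2-fold, at -0.82, -0.83 and -0.96. TG and WT held different shares of the CD4 clusters: cluster 6 had 58 of 238 TG and 397 of 734 WT cells, cluster 9 had 132 and 272, and cluster 21 had 48 and 65. Within clusters 6, 9 and 21 neither Prdm1 (0.06, 0.71 and 0.91) nor Lef1 (-0.51, -0.25 and -0.56) was called. For Prdm1 the interval was wide in cluster 6 (-3.16 to 2.25, from 2 and 11 UMIs) and cluster 9 (-0.20 to 1.62). In cluster 21 it lay above 0 (0.16 to 1.70, from 43 and 24 UMIs). For Lef1 the interval lay below 0 in cluster 6 (-0.83 to -0.21). Id2 was called in cluster 6 (1.07, 0.65 to 1.47). In cluster 9 (0.78, 0.63 to 0.93) and cluster 21 (0.82, 0.34 to 1.31) Id2 was under 2-fold, with intervals above 0.

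The CD8αα T class had 4 calls (2 higher, 2 lower), against 5.67% of all genes tested (3.49% higher, 2.18% lower). Zeb2 was at 34.7 CPM in TG from 46 UMIs and 5.45 CPM in WT from 3 UMIs, a log2 ratio of 2.67 (1.03 to 5.0). Prdm1 was at 59.6 and 29.1 CPM (1.04), Id3 at 12.8 and 45.5 CPM (-1.82) and Satb1 at 42.3 and 94.5 CPM (-1.16). Tcf7 was higher in TG rather than lower, at 160 and 94.5 CPM (0.76, 0.32 to 1.23). Because Trdc-bearing cells differed between the genotypes, the ratios were repeated without them, a choice made after seeing the data, which left 390 TG and 112 WT cells. Zeb2 (2.50, 0.57 to 5.59, from 45 and 2 UMIs) and Id3 (-1.89) were still called, Tcf7 became called (1.23, with an interval above 0), and the calls of Prdm1 (0.94, -0.02 to 2.06, from 76 and 10 UMIs) and Satb1 (-0.51, -1.29 to 0.33) were lost. Bach2 went from -0.20 to -1.13 (-2.26 to 0.08, from 20 and 11 UMIs), which was not called.

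NKT cells and cells labelled NK were compared next. NKT cells had 1 call, against 5.2% of all genes tested (3.92% higher, 1.28% lower): Zeb2 at 13 and 5.15 CPM (1.34, 0.51 to 2.15), from 23 and 34 UMIs. With cells thinned to 1000 UMIs this ratio turned to -1.0. Cells labelled NK had 3 (1 higher, 2 lower), against 7.63% (3.45% higher, 4.18% lower): Zeb2 at 240 and 118 CPM (1.02), Tox at 49.5 and 118 CPM (-1.26) and Satb1 at 99.9 and 285 CPM (-1.51). This class is made of clusters 3, 8 and 11, and cluster 11 held 343 TG but 22 WT cells. In cluster 11 Zeb2 stood at 384 CPM in TG and 259 in WT, and the summed level of 5 T cell markers was 4775 CPM in TG. Cluster 8, where that sum was 819 CPM in TG and 666 in WT, was taken alone after the data were seen. There Zeb2 (0.08, -0.26 to 0.41), Tox (-0.41) and Satb1 (-0.65) were not called, and Tcf7 was (-1.21, -1.72 to -0.73), 1 call against 5.4% of all genes tested there. In cluster 3 (263 TG and 306 WT cells), where the T cell marker sum was 5572 and 2467 CPM, 3 members were called, against 7.92% of all genes tested. Zeb2 was at 67.2 and 10.8 CPM (2.64, 1.61 to 3.84), Satb1 at 65.9 and 195 CPM (-1.57), and Tcf7 was higher in TG, at 262 and 102 CPM (1.36, 0.99 to 1.75), opposite to cluster 8. The difference between the clusters was not tested.

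B cells and myeloid cells show how the same members compared where the CD4 promoter is not typically active. Macrophages and monocytes had 0 calls, against 7.13% and 7.18% of all genes tested. In macrophages Zeb2 was at 196 and 172 CPM and Id3 at 178 and 199 CPM. Immature B cells had 2 calls, both lower, against 4.59% (2.42% lower): Prdm1 at 13.1 and 50.1 CPM (-1.94, -2.85 to -1.10) and Lef1 at 4.09 and 17.7 CPM (-2.11). Mature B cells had 3 calls, all lower, against 4.23% (2.45% lower): Tcf7 at 10.4 and 59.0 CPM (-2.50), Lef1 at 6.25 and 40.1 CPM (-2.68) and Tox at 6.55 and 29.8 CPM (-2.19). All 3 were at low levels in this class, and the part of cells with T cell markers in these ratios was not tested. Cluster 17, labelled mature B, held 29 of 1068 TG and 155 of 1494 WT mature B cells, with summed T cell markers at 3234 and 4009 CPM and Tcf7 at 88.3 and 243 CPM. In cluster 1 alone, chosen after the data were seen, Tcf7 was at 6.06 and 12.4 CPM (-1.03, -1.92 to -0.18), Lef1 at 3.51 and 11.3 CPM (-1.69) and Tox at 5.10 and 13.8 CPM (-1.43), all 3 called against 3.51% of all genes tested. Bach2 (0.18), which mature B cells hold in quantity, differed little, while Foxo1 was lower (-0.62, -0.75 to -0.49).

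**Figure D2:**
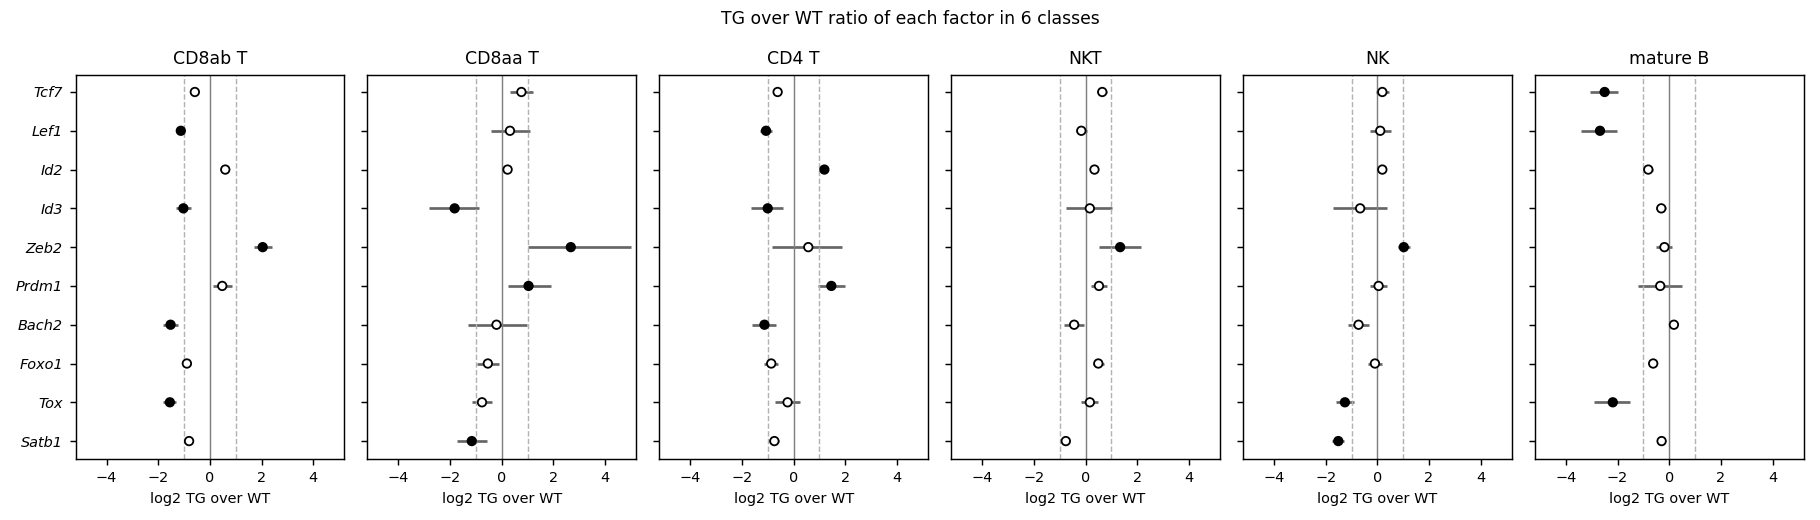
Log2 ratio of TG over WT for each factor in 6 classes. Bars are exact 95% intervals for counting error, filled points are called, and dashed lines mark 2-fold. Zeb2 lies to the right of the 2-fold line in CD8αβ T, CD8αα T, NKT and NK cells but not in CD4 T or mature B cells. Its NKT and NK calls did not hold under all alternatives. Bach2 lies to the left in CD8αβ and CD4 T cells.

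CD8 T cells were next divided into the clusters of the deposited annotation. Cluster 4 had the naive markers Ccr7 at 204 CPM in TG and 258 in WT and Dapl1 at 148 and 195 CPM, and cluster 12 had the effector genes Klrg1 and Cx3cr1, at 855 and 1026 CPM in TG and 168 and 237 CPM in WT. Cluster 7 had summed proliferation markers at 3838 and 3864 CPM, cluster 2 is the CD8αα T class, and clusters 13, 18 and 23 lay in the CD8αβ T class without a name used here. Of all CD8 T cells, cluster 4 made up 10.1% in TG and 35.8% in WT, and cluster 12 17.4% and 7.21%.

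Between cluster 4 and cluster 12 most members differed, in opposite directions by role. In TG 8 of the 10 were called, against 18.9% of all genes tested, and in WT 6, against 11.7%. The 5 called in the same direction in both were Lef1, Id3 and Satb1, all lower in cluster 12, and Zeb2 and Prdm1, both higher. The share of all genes called alike in both is not given, so this count of 5 has no background. Zeb2 went from 13.9 CPM in cluster 4 to 432 CPM in cluster 12 in TG and from 7.63 to 123 CPM in WT. Prdm1 went from 8.31 to 89.8 CPM in TG and from 2.86 to 31.9 CPM in WT, where cluster 12 held only 7 UMIs. Satb1 went from 597 to 106 CPM in TG and from 656 to 150 CPM in WT. Tcf7 went from 924 to 236 CPM in TG (log2 ratio -1.97) but only from 831 to 542 CPM in WT (-0.62). Tox differed in sign, from 33.2 to 19.1 CPM in TG (-0.80, -1.87 to 0.21) and from 64.8 to 132 CPM in WT (1.03, 0.35 to 1.67). These clusters were built from the same genes, so the contrasts describe the clusters and test nothing. Against cluster 4, cluster 7 had 8 members called in each genotype (26.7% of all genes tested in TG, 25.7% in WT), cluster 2 had 9 in each (22.5% and 20.9%), and cluster 13 had 3 in TG and 1 in WT (4.44% and 6.18%).

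Of the 6 CD8 clusters compared between TG and WT, cluster 12 had the most members called. There 8 of the 10 were called (3 higher, 5 lower), against 6.73% of all genes tested (3.56% higher, 3.16% lower). Zeb2 was at 432 and 123 CPM (log2 ratio 1.81, 1.24 to 2.44), Prdm1 at 89.8 and 31.9 CPM (1.5, 0.37 to 2.86) and Id2 at 1277 and 583 CPM (1.13, 0.86 to 1.41). All of the effector members were thus higher in the TG cells of the effector cluster. Lower were Tox at 19.1 and 132 CPM (-2.79), Bach2 at 10.9 and 72.8 CPM (-2.74), Id3 at 12.3 and 41.0 CPM (-1.74), Tcf7 at 236 and 542 CPM (-1.20) and Lef1 at 83 and 173 CPM (-1.06). The WT cells numbered 73 and Id3, Bach2 and Prdm1 rested on 9, 16 and 7 WT UMIs. The summed level of the naive markers Ccr7, Dapl1 and Igfbp4 was 15 CPM in TG and 114 in WT cells of cluster 12, and its part in these ratios was not tested.

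Naive cluster 4 had the fewest members called. Only Foxo1 was called, at 157 CPM in TG and 325 in WT (-1.05, -1.37 to -0.74), against 6.67% of all genes tested (3.12% lower). Tcf7 was at 924 and 831 CPM (0.15, 0.00 to 0.30) and Satb1 at 597 and 656 CPM (-0.14, -0.31 to 0.04). Bach2 (-0.98) and Tox (-0.96) lay just under 2-fold, with intervals below 0.

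In cluster 13 there were 3 calls, against 5.91% (2.91% higher, 3.0% lower): Id2 at 624 and 273 CPM (1.19), Prdm1 at 37.2 and 14.5 CPM (1.36) and Id3 at 41.3 and 108 CPM (-1.38). Proliferating cluster 7 had 5, against 6.18% (3.06% higher, 3.11% lower), with Zeb2 at 93.9 and 29.8 CPM (1.65) and Bach2, Id3, Lef1 and Satb1 lower, at log2 ratios from -1.33 to -1.01. Cluster 18 had 2, against 4.82% (2.61% lower): Tox (-2.47) and Prdm1 (-2.41) were lower in TG, from 12 and 15 UMIs in 37 WT cells. Prdm1 thus lay higher in TG in clusters 12, 13 and 2 and lower in cluster 18, and this difference was not tested.

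Cluster 23 stood out for Tox, at 574 CPM (379 to 836) in TG and 599 CPM (512 to 695) in WT, the highest level of any CD8 cluster. Only 15 TG cells fell in it, against 76 WT cells, so no ratio was called. Prdm1 was at 170 and 94.5 CPM and Tcf7 at 85.1 and 109 CPM in the same cells, and no Id3 UMI was found, which at the floor of 3 UMIs allows up to 63.8 CPM in TG and 10.5 in WT.

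**Figure D3:**
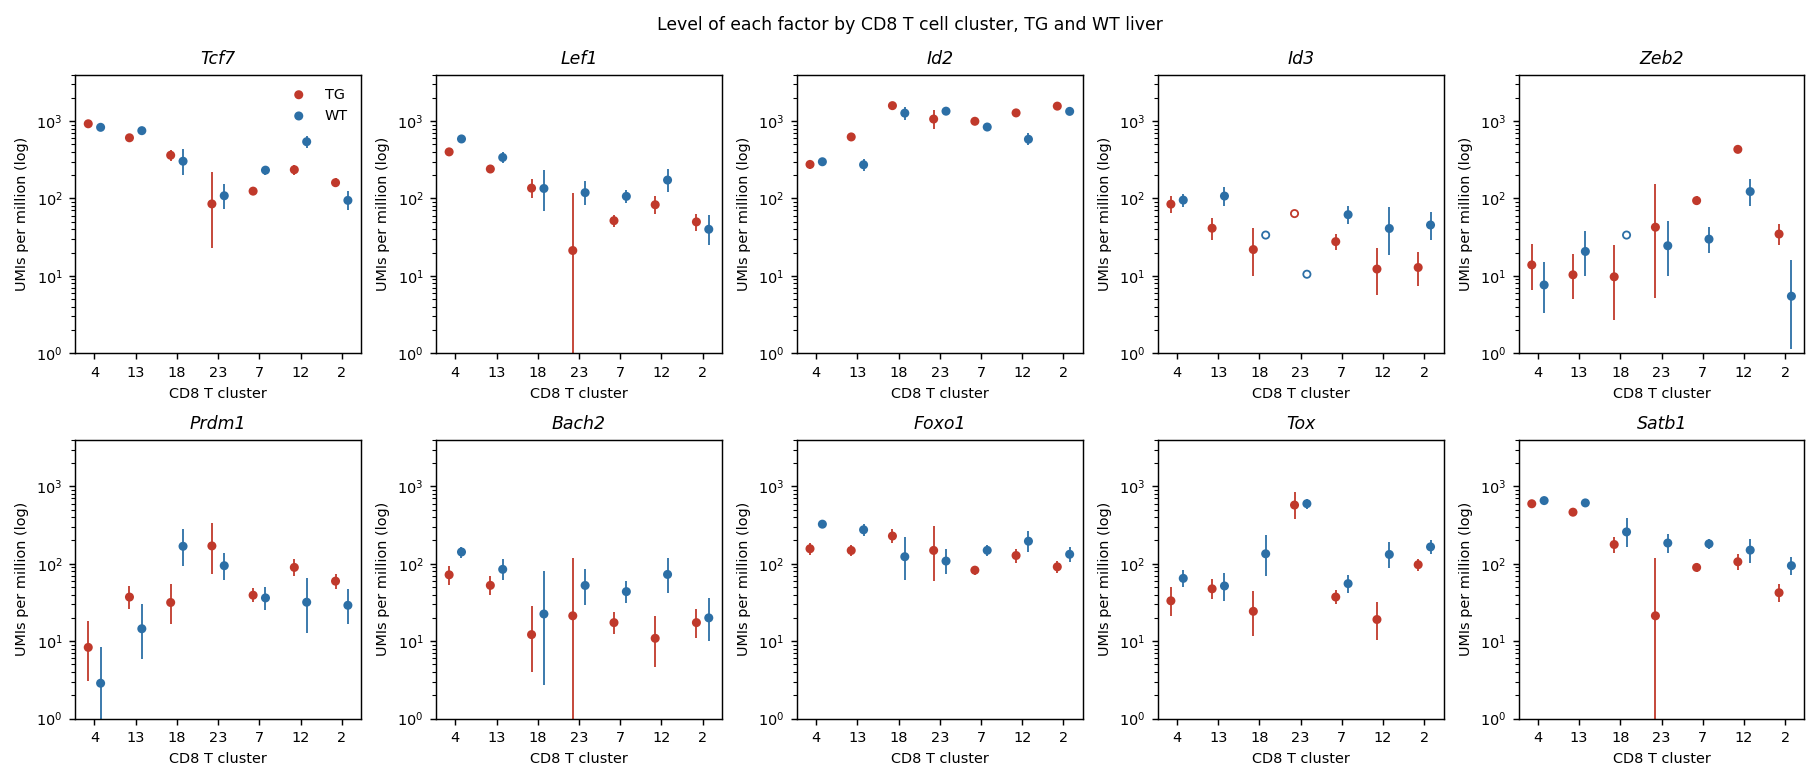
Level of each factor in CPM (log axis) by CD8 T cell cluster, for TG (red) and WT (blue), with exact Poisson 95% intervals and open points at the floor of 3 UMIs where none was counted. Zeb2 is at 432 CPM in TG and 123 in WT cells of cluster 12, and Tox peaks in cluster 23 in both.

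In CD4 T cells fewer members were called between TG and WT within a cluster than in the whole class, but each cluster also held fewer UMIs. In clusters 6, 9 and 21, 9, 10 and 8 members could be tested. Cluster 6 had 2 calls, against 5.4% of all genes tested, Id2 at 401 and 191 CPM (1.07) and Tox at 28.7 and 74.1 CPM (-1.37, from 5 and 74 UMIs). Cluster 9 had 2, against 5.51%, Bach2 at 18.9 and 63.2 CPM (-1.74) and Id3 at 18.9 and 41.7 CPM (-1.14), each from 9 TG UMIs. Cluster 21 had 0, against 7.1%. Foxo1 was not called in clusters 6, 9 and 21 (-0.77, -0.46 and -0.93), but its interval lay below 0 in each. Between cluster 6 and cluster 9, 6 members were called in each genotype, against 11% of all genes tested in TG and 11.5% in WT. They were the same members in the same direction, and the share of all genes called alike in both is not given. Id2 and Prdm1 were higher in cluster 9, and Lef1, Id3, Bach2 and Satb1 lower. Id2 went from 401 to 1655 CPM in TG and from 191 to 963 CPM in WT, and Bach2 from 189 to 18.9 CPM in TG and from 192 to 63.2 CPM in WT. Cluster 21 held the most Prdm1 of the CD4 clusters, 221 CPM in TG and 117 in WT, with Tox at 144 and 147 CPM and Tcf7 at 97.5 and 88.0 CPM.

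TG and WT held different shares of the CD8 clusters. The ratio over all CD8 T cells was therefore recomputed with the WT cluster shares applied to the TG cluster levels. Here a cluster's share was its part of the summed UMIs, not of the cells as given above, and weighting by cells was not done. As measured, 5 members were past 2-fold, against 5.84% of all genes tested, and with matched shares 2 were, against 5.19%. Zeb2 moved from a log2 ratio of 2.02 to 1.5 (1.15 to 1.85) and Bach2 from -1.47 to -1.01 (-1.33 to -0.69). Tcf7 moved from -0.56 to -0.09 (-0.20 to 0.01), an interval that holds 0. With the TG shares as the reference, Tcf7 was at -0.28 (-0.38 to -0.18) and Id3 was past 2-fold too (-1.02), which made 3 members, against 5.44%. Without the proliferating cluster 7, Zeb2 was past 2-fold and Bach2 (-0.96) was not, 1 member against 5.27%. Over the CD8αβ clusters only, Tcf7 was at -0.13 (-0.24 to -0.03). Lef1 moved from -1.12 to -0.61, Tox from -1.27 to -0.50 and Id3 from -1.14 to -0.74. With the TG shares as the reference, Tox was at -0.89 (-1.13 to -0.66). Cluster 23, the highest in Tox, held only 15 of 1430 TG against 76 of 1013 WT CD8 T cells. Foxo1 moved from -0.87 to -0.76 and Prdm1 from 0.60 to 0.62, and with the TG shares as the reference Prdm1 was at 0.34 (-0.02 to 0.70). Id2 went from 0.54 to 0.26 and Satb1 from -0.88 to -0.39.

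**Figure D4:**
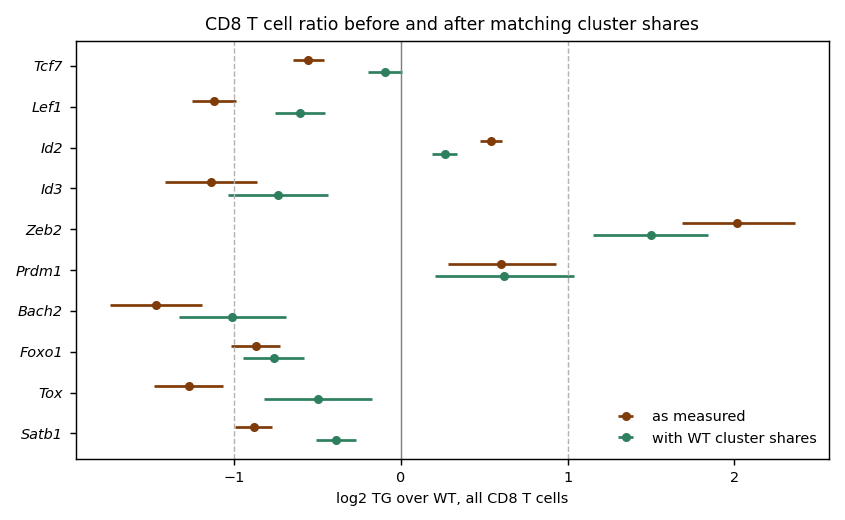
Log2 ratio of TG over WT over all CD8 T cells for each factor, as measured (brown) and with the WT cluster shares applied to TG (green). Shares are of summed UMIs, not of cells. Bars are 95% intervals for counting error and dashed lines mark 2-fold. Only Zeb2 (1.5) and Bach2 (-1.01) are past 2-fold with matched shares, whereas Tcf7 moves from -0.56 to -0.09.

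Antibody counts gave a second readout of the same cells. CD8 T cells were split into 3 equal parts by CD44, a surface protein of antigen-experienced T cells, measured as a centred log ratio. In WT, 6 members were past 2-fold between the upper and lower part, against 15.1% of all genes tested. Lef1 was at 124 CPM in the upper and 562 CPM in the lower part, Tcf7 at 337 and 781 CPM, Satb1 at 246 and 596 CPM and Bach2 at 52.5 and 127 CPM. Id2 was at 888 and 374 CPM and Prdm1 at 45.8 and 11.4 CPM. Lef1, Tcf7, Satb1 and Bach2 were thus higher in the cells with little CD44, whereas Id3 (-0.29, -0.77 to 0.19) was not past 2-fold, and cluster 4 made up 87.2% of that part.

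In TG only Zeb2 was past 2-fold, against 3.32% of all genes tested, and it was lower in the upper part, at 36.0 against 166 CPM (log2 ratio -2.20, -2.57 to -1.85). Cluster 12 made up 35.3% of the lower and 4.83% of the upper part in TG, whereas cluster 4 made up 14.3% of the lower part. The CD44 medians of the parts, as natural log ratios, were 2.77 and 3.73 in TG and 1.23 and 3.46 in WT. No member was past 2-fold in the same direction in both genotypes, against 0.78% of all genes tested in both.

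Some other antibodies gave patterns shared by the genotypes. Depth moved with some of these parts (in TG the lower and upper CD49a parts had medians of 5324 and 3298 UMIs), and its part in the result was not tested. With CD49a, the integrin α1 chain of tissue-resident lymphocytes, 6 members were past 2-fold in the same direction, against 5.04% of genes. Tcf7 was at 162 CPM in the upper and 478 CPM in the lower part in TG and at 153 and 641 CPM in WT, with Lef1, Id3, Bach2 and Satb1 in the same direction. Id2 was at 1467 and 637 CPM in TG and at 1296 and 409 CPM in WT. With CD5, a receptor that scales with T cell receptor signal strength, Tcf7, Lef1, Id3 and Satb1 were higher in the upper part in both, 4 members against 4.41% of genes. With CD122, the IL-2 receptor β chain, 1 member was shared, Tox, which was lower in the upper part, at 33.8 against 71.4 CPM in TG and 75.5 against 169 CPM in WT (1.7% of genes). In TG, but not WT, Tcf7 (1.24), Lef1 (1.19) and Satb1 (1.72) were past 2-fold too, higher in the upper part, against 8.52% of genes. The CD122 medians lay close, at 0.287 and 1.28 in TG and 0.248 and 0.958 in WT. The lower and upper parts had medians of 3264 and 5210 UMIs in TG and 2708 and 3342 in WT. With CD197 (CCR7) none was past 2-fold in either genotype, against 2.0% and 2.55% of genes. The CD197 medians of the lower and upper parts were only 0 and 0.386 in TG and 0 and 0.433 in WT. This split therefore hardly separated cells by CD197 and cannot show whether the members differ with it.

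**Figure D5:**
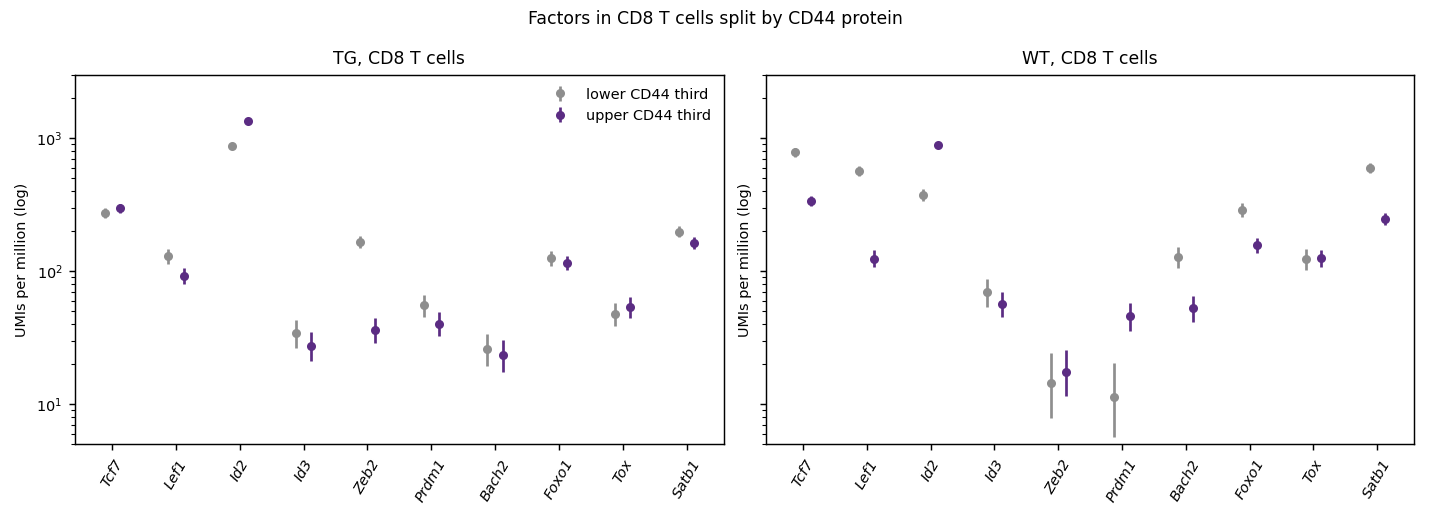
Level of each factor in CPM (log axis) in the lower (grey) and upper (purple) of 3 equal parts of CD8 T cells by CD44 antibody, in TG and WT, with exact Poisson 95% intervals. In WT, Lef1 is at 562 CPM in the lower and 124 CPM in the upper part. In TG, Zeb2 is at 166 and 36.0 CPM.

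Pairs of members were then looked for in the same CD8 T cells, after thinning each cell to 1000 UMIs. A Lef1 UMI was found in 17.3% (13.5 to 21.8) of Tcf7-positive and 8.12% (6.56 to 9.91) of Tcf7-negative TG cells, and in 33.8% and 16.7% of WT cells. After this thinning, Tcf7 and Lef1 were the only one of the 6 pairs whose intervals did not overlap in both genotypes. Within each CD8 cluster with a value the intervals of this pair overlapped in both genotypes, and in cluster 4 Lef1 was found in 35.2% of Tcf7-positive and 38.6% of Tcf7-negative TG cells and in 44.7% and 41.3% of WT cells. The shares lay further apart in TG cells of cluster 12, at 16.1% (7.62 to 28.3) and 4.15% (1.81 to 8.0), and in WT cells of cluster 7, at 25% (9.77 to 46.7) and 5.56% (2.07 to 11.7), where few cells had both UMIs (9 and 6). Zeb2 was found in 8.67% (5.93 to 12.1) of Tcf7-positive and 10.4% (8.67 to 12.4) of Tcf7-negative TG cells, which overlap. Cells are not replicates, and at this depth an absent UMI does not show an absent transcript.

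The other genes of the naive, memory and effector course were taken from 4 lists. Over all CD8 T cells, 4 of 7 effector genes were called higher in TG (3.25% of all genes tested were called higher), with a median log2 ratio of 2.09 beside 0.04 over all genes tested. Klrg1, an inhibitory receptor of terminal effectors, was at 309 and 35.1 CPM (3.13) and Cx3cr1, a chemokine receptor, at 239 and 34.9 CPM (2.78). S1pr5 (2.56), a receptor for egress, and Gzma (2.09), a granzyme, were called too, while Gzmb (0.70), Prf1 (0.72) and Nkg7 (0.41) were under 2-fold. Of 14 related factors only Tbx21 was called, at 210 and 81.0 CPM (1.37, 1.19 to 1.56). T-bet, its product, acts upstream of Zeb2. Eomes (0.16, -0.04 to 0.35) and Zfp683 (0.17), which encodes Hobit, were not called.

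None of 7 naive and memory genes was called, where 2.59% of all genes tested were called lower, and their median log2 ratio was -0.83, with Ccr7 at -0.97, Dapl1 at -0.93 and Il7r, the IL-7 receptor chain, at 350 and 620 CPM (-0.83). Of the 3 E proteins that Id2 and Id3 bind, none was called (Tcf3 0.26, Tcf12 0.10, Tcf4 -0.63). In CD4 T cells 5 of 7 effector genes were called higher and 2 of 7 naive and memory genes lower, and 3 of 14 related factors were called higher (5.01% of all genes tested there were called higher and 2.15% lower): Tbx21 (1.37), Batf (1.29) and Nfil3 (1.91). In NKT cells 4 of 7 effector genes were called higher (3.92% of all genes tested there), among them Gzma (3.63) and Klrg1 (2.82), and no gene of the other 3 lists was called. In cells labelled NK, 3 of 7 effector genes were called higher (3.45% of all genes tested there), with Klrg1 at 2.73, and 1 naive and memory gene was called lower (4.18%), Il7r at -1.80. Irf4 was called higher there (2.30, from 42 and 6 UMIs) and Eomes (-1.26) and Myb (-1.81) lower. Cluster 11, with 343 TG and 22 WT cells, is part of this class, and cells with a Trdc UMI made up 6.98% of TG and 17.1% of WT cells of the whole class. The part of either in these list ratios was not tested.

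In mature B cells 3 of 7 effector genes were called higher (1.78% of all genes tested) and 1 lower (2.45%): Klrg1 (2.11), Cx3cr1 (3.08) and Gzma (1.16) were higher and Prf1 (-1.02) was lower. Of 7 naive and memory genes 4 were called lower (Il7r -1.97, Cd27 -1.59, Cd28 -3.00 and Dapl1 -2.63), as were the related factors Eomes (-2.24) and Bcl11b (-1.99). Cluster 17, with its T cell markers, made up 29 of 1068 TG and 155 of 1494 WT cells of this class, fewer in TG. Cells with both B and T cell markers made up 13% of all TG and 5.89% of all WT cells. The part of either in these ratios was not tested.

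Across the 21 profiles of class and genotype with at least 50 cells, the genes most like each member were ranked by Pearson correlation of log2(CPM + 10) over 7944 genes. The profiles share libraries and depth, so these values are a description. Tcf7 was most like Cd247 (0.96), Lef1 (0.95) and Lat (0.93), and Lef1 was most like Tcf7, Sh2d1a (0.93) and Bcl11b (0.93). Foxo1 was most like Pym1 (0.95) and Tox most like Cd3g (0.94), with Id2 most like Rnf166 (0.92). Bach2 was most like Ift140 (0.88) and next Foxp1 (0.86), Id3 most like Fam69a (0.87), Prdm1 most like Vopp1 (0.87) and Satb1 most like Pde4d (0.84). Zeb2 had the weakest closest match, Plek (0.80).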

How the data were processed

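Hepatic CD45+ cells were captured on the BD Rhapsody platform with whole transcriptome, antibody and sample tag libraries. The authors aligned reads to mm10 and counted UMIs with the BD Rhapsody pipeline (version 1.9 in the header of the library counts, while the study's methods give a fuller version number). They deposited a filtered count table, a count table for each of the 2 libraries, antibody values as centred log ratios on a natural log scale, and a table of other cell labels (class, cluster and genotype). How cells were filtered and doublets handled was not given in the sources used here, and 0 member counts differed between filtered and library tables. The deposited normalised RNA values were not used.

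UMIs of each gene were summed per class or cluster and genotype and divided by the total (CPM). Intervals were exact Poisson for CPM, Clopper-Pearson for shares and exact conditional binomial for log2 ratios, all at 95% and for counting error only. With 1 library per genotype no p-value was computed. Calls needed 2-fold, an interval without 0 and 10 UMIs, in classes of at least 50 and CD8 clusters of at least 30 cells. The 995 genes at 0 in all cells of a genotype were not counted among genes tested. Named genes were the 10 members, the 4 lists, the cell type markers and, for each member, the 3 genes most like it, of which some are printed. Members and lists were chosen with earlier results of these data known. Scrublet marked 0.839% of TG and 3.31% of WT cells, which stayed in. Tools were Python 3.11.15, scipy 1.17.1, scanpy 1.11.5 and edgeR 4.0.16 (TMM factors, as an alternative). The ratio and its call were tested on simulated data.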

Additional observations from a re-analysis of the deposited data

Results flagged for a closer look

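Prdm1 differed between TG and WT in opposite directions in different classes. It was higher in TG in CD8αα T cells (log2 ratio 1.04, 59.6 against 29.1 CPM) and in CD4 T cells (1.46, 80.5 against 29.3 CPM), and lower in immature B cells (-1.94, 13.1 against 50.1 CPM). Each of these passed 2-fold with an interval that left out 0, but the difference between the classes was not tested, because each genotype has 1 library. In CD8αα T cells without a Trdc UMI, taken after the data were seen, the ratio was 0.94 (-0.02 to 2.06, from 76 and 10 UMIs) and was not called. In CD4 clusters 6, 9 and 21 it was 0.06, 0.71 and 0.91, none of them called. The intervals were -3.16 to 2.25 (from 2 and 11 UMIs), -0.20 to 1.62, and 0.16 to 1.70, the last of which lay above 0. Cluster 6 held 58 of 238 TG but 397 of 734 WT CD4 T cells. In immature B cells Prdm1 rested on 16 TG and 51 WT UMIs, with 37.5% and 21.6% of them in 3 cells.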

How the results depend on the processing

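No paired analysis was possible because each genotype has 1 library. Across 60 ratios of member and class, 53 kept their sign under the 8 alternatives fixed with the design, and 13 of 21 calls held under all of them. The 8 others were Bach2, Id3 and Lef1 in CD4 T cells, Id3 in CD8αβ T cells, Prdm1 and Satb1 in CD8αα T cells, and Zeb2 in NK and NKT cells. Zeb2 in NKT cells reversed, from 1.34 to -1.0, with cells thinned to 1000 UMIs, and the cause was not tested. With equal weight for each cell, 8 members in place of 5 differed between clusters 12 and 4 in both genotypes. The share of all genes under that weighting is not given. Without proliferating cluster 7, 1 member in place of 2 was past 2-fold with matched cluster shares (Bach2 at -0.96), and with TG shares as the reference 3 were. Without thinning, 8 in place of 2 of the 12 combinations of pair and genotype had intervals apart. The total of 23 calls by class ran from 19 with equal weight for each cell to 26 without the 3 cells holding most UMIs of a gene. Few WT molecules limit Zeb2 and Prdm1 in WT CD8 clusters.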
